A study of Danio rerio with 24 samples.

Results

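The p53 pathway and growth arrest genes described here are mdm2, cdkn1a, ccng1, gadd45aa, phlda3 and sesn1, which are known p53 targets in fish or mammals, and btg2, an antiproliferative gene. The 7 genes were taken by symbol from the authors' gene table, which pairs each symbol with an Ensembl identifier, and all 7 are among the 26347 genes of the main raw count table. The same 7 passed the filter on low counts, as did 20907 genes in all. RNA came from whole zebrafish embryos of WT fish and of slincRosu3, a line with a CRISPR-Cas9 mutation in slincR, a long intergenic noncoding RNA named after sox9b. Embryos of each line were either controls or were kept in 1 ng/mL TCDD (2,3,7,8-tetrachlorodibenzo-p-dioxin, an agonist of the aryl hydrocarbon receptor) starting at 6 hours post fertilization, and were collected at 48 hours. Each of these 4 groups had 4 libraries; another 8 samples, of a line called BigD, were not analysed here. The labels give no strain for WT, and they do not say whether libraries of a group came from separate clutches, so p-values measure only the spread between these libraries, which may be technical.

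The transcription factor p53 is held at a low level by the ubiquitin ligase Mdm2 and is stabilized after DNA damage and other stresses. Its targets halt the cell cycle, help repair or lead to cell death, and mdm2 is one of them, which closes a feedback loop. Mammalian BTG2 is a p53 target as well, and it is also switched on quickly by growth factors, as the immediate-early genes FOS and EGR1 are. Its protein belongs to the BTG/TOB family and binds the CCR4-NOT complex, which shortens the tails of mRNAs.

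Total counts ran from 17275522 to 20100736 per library. As a check of the exposure labels, cyp1a, a direct target of the aryl hydrocarbon receptor, was at 2.75 to 5.32 CPM (counts relative to the library total, scaled with TMM) in the 8 control libraries and at 856.2 to 1931 CPM in the 8 exposed ones. The exposed libraries held 856.2 to 1231 CPM in WT and 1655 to 1931 CPM in slincRosu3, a log2 difference of 0.70. Its part in other differences between the lines with TCDD was not tested. slincR has no row under its name and was not analysed here, so it gives no check of the line labels. Markers of erythroid cells, skeletal muscle, heart, neurons, lens, epidermis, notochord and cartilage, and yolk and liver were all detected. WT control 4, slincRosu3 control 4, WT TCDD 3 and WT TCDD 4 had the highest scores on the first principal component (29.8% of the variance), which separated neither the lines nor the treatments. The edgeR test was repeated without these 4 libraries, and results whose calls or values it changed are given both ways. The second component (16.7% of the variance) did separate the lines, with scores of 6.63 to 31.83 in slincRosu3 and of -28.56 to -0.2 in WT.

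btg2 was lower in slincRosu3 embryos than in WT embryos, 1.589-fold on average over both treatments and 1.809-fold with TCDD. None of the 6 p53 targets passed the test in any of the 7 contrasts, which were TCDD in each line, line at each treatment, both effects averaged, and the difference between the TCDD effects. Of all genes tested, 0% to 5.45% passed in these contrasts. Averaged over treatments, the ratio of btg2 to each of the 6 targets was lower in slincRosu3, in a test added after the data had been seen. With TCDD only, no ratio passed. No correlation between btg2 and a target passed its test.

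**Figure D1:**
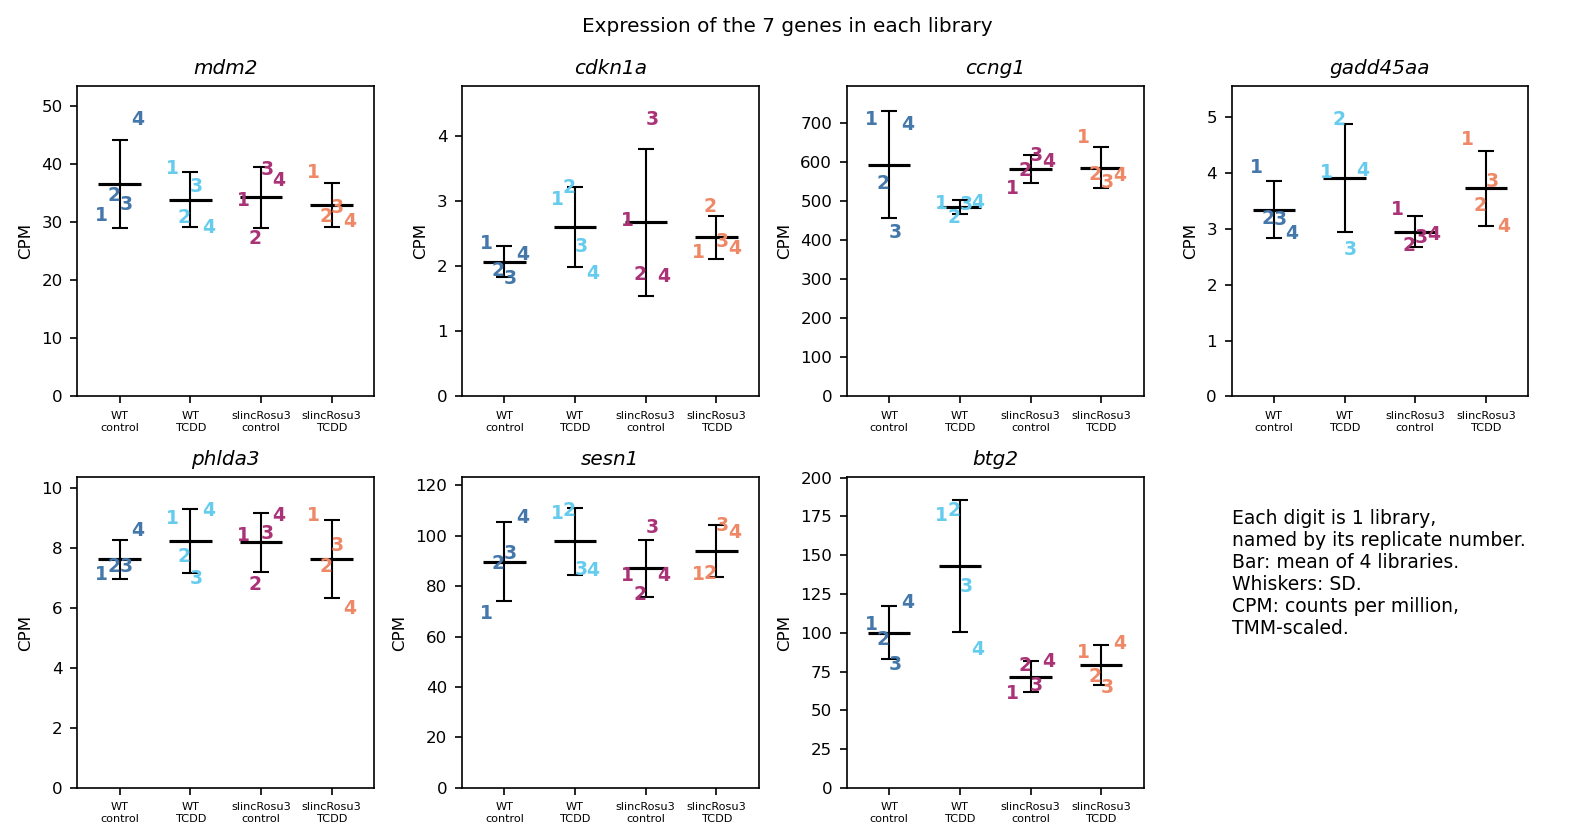
CPM (vertical axes, starting at 0) of the 7 genes in the 4 groups (horizontal axes), with each library drawn as its replicate number, the mean as a bar and the SD as whiskers. btg2 stood highest in WT TCDD 1 and 2, at 175.9 and 178.7 CPM, and between 60.9 and 93.1 CPM in the 8 slincRosu3 libraries.

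mdm2 (ENSDARG00000033443), the ligase that marks p53 for degradation, was at 31.1, 34.6, 33.0 and 47.7 CPM in WT control libraries 1 to 4 and at 39.3, 30.8, 36.2 and 29.0 CPM in WT TCDD. In slincRosu3 it was at 33.7, 27.2, 39.1 and 37.3 CPM without TCDD and at 38.5, 30.9, 32.5 and 30.2 CPM with it. WT control 4, a library that stands apart on the first component, held the highest value, and all 4 groups overlapped. The log2 difference for TCDD was -0.11 (95% interval -0.42 to 0.19) in WT and -0.05 (-0.36 to 0.25) in slincRosu3. Between the lines it was -0.09 (-0.40 to 0.21) without TCDD and -0.03 (-0.34 to 0.27) with it. The edgeR quasi-likelihood test, adjusted over all genes, gave mdm2 an adjusted p of 0.811 or more in every contrast.

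cdkn1a (ENSDARG00000076554) encodes p21, the cyclin-dependent kinase inhibitor through which p53 stops the cycle. It was counted 32 to 81 times per library, the lowest counts of the 7 genes, so its estimates are the least precise. It was at 2.36, 1.94, 1.82 and 2.18 CPM in WT control libraries 1 to 4, and at 3.03, 3.21, 2.31 and 1.89 CPM in WT TCDD. In slincRosu3 it was at 2.71, 1.88, 4.26 and 1.85 CPM without TCDD and at 2.21, 2.92, 2.38 and 2.27 CPM with it. The highest value lay in slincRosu3 control 3, while WT TCDD 1 and 2 were the next highest, and all groups overlapped. The largest log2 difference between lines or treatments was 0.37 (SE 0.254), for slincRosu3 against WT without TCDD, with an interval from -0.16 to 0.91 and an edgeR adjusted p of 0.637.

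ccng1 (ENSDARG00000076667) encodes cyclin G1, which in mammals brings protein phosphatase 2A to Mdm2. WT control libraries 1 to 4 held 709.7, 546.4, 419.8 and 696.6 CPM and WT TCDD libraries 493.0, 458.9, 492.3 and 495.3 CPM. The slincRosu3 libraries held 532.1, 578.7, 617.1 and 600.3 CPM without TCDD and 662.7, 568.7, 546.6 and 566.0 CPM with it. WT control was the most scattered group and WT TCDD the tightest, with coefficients of variation of 23.1% and 3.58%. The 4 WT TCDD libraries were all below the 4 slincRosu3 TCDD libraries, an order without overlap that 5.36% of all genes tested showed in the same direction. The log2 difference between the lines with TCDD was 0.27 (SE 0.132), at an edgeR adjusted p of 0.36. For TCDD in WT it was -0.29 (SE 0.132), with an adjusted p of 0.605 in the edgeR test, and the 2 groups overlapped through WT control 3.

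gadd45aa (ENSDARG00000043581), one of the fish counterparts of the stress sensor GADD45A, was counted 47 to 96 times per library. It was at 4.10, 3.19, 3.17 and 2.92 CPM in WT control libraries 1 to 4 and at 4.01, 4.97, 2.63 and 4.04 CPM in WT TCDD. In slincRosu3 it was at 3.35, 2.71, 2.84 and 2.89 CPM without TCDD and at 4.60, 3.42, 3.85 and 3.05 CPM with it. The means with TCDD were above those of the controls in both lines, but the groups overlapped in both. Averaged over the lines, the log2 difference for TCDD was 0.28 (SE 0.136, interval -0.01 to 0.57), with an edgeR adjusted p of 0.676.

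phlda3 (ENSDARG00000037804), which in mammals keeps the kinase Akt from the membrane, was the steadiest of the lower genes. Its lowest library held 5.98 CPM, in slincRosu3 TCDD 4, and its highest 9.24 CPM, in WT TCDD 4. Group means were 7.62 ± 0.658 CPM in WT control, 8.23 ± 1.07 in WT TCDD, 8.18 ± 0.987 in slincRosu3 control and 7.63 ± 1.30 in slincRosu3 TCDD (SD, n = 4 each). All groups overlapped. Log2 differences in the 4 comparisons of single groups ran from -0.11 to 0.11, each with SE 0.143.

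sesn1 (ENSDARG00000020693) encodes Sestrin 1, an inhibitor of the growth kinase complex mTORC1. WT control libraries 1 to 4 were at 69.3, 89.1, 93.0 and 107.4 CPM and WT TCDD libraries at 108.8, 109.9, 86.5 and 86.1 CPM. In slincRosu3 the values were 84.4, 76.7, 103.1 and 84.3 CPM without TCDD and 84.8, 85.1, 104.0 and 101.3 CPM with it. WT TCDD 1 and 2 were again the highest of their group, here with WT control 4 close behind, and all groups overlapped. The log2 difference for TCDD was 0.13 (SE 0.134) in WT and 0.11 (SE 0.134) in slincRosu3, and the line differed by -0.04 and -0.06 (SE 0.134 for both) without and with TCDD. The edgeR adjusted p for sesn1 was 0.837 or more in all 7 contrasts.

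btg2 (ENSDARG00000020298) was at 105.6, 95.6, 79.7 and 119.7 CPM in WT control libraries 1 to 4 and at 175.9, 178.7, 129.6 and 89.0 CPM in WT TCDD. In slincRosu3 it was at 60.9, 78.8, 65.9 and 81.3 CPM without TCDD and at 87.1, 71.9, 64.8 and 93.1 CPM with it. WT TCDD 1, 2 and 3 were above every other library, whereas WT TCDD 4 was below slincRosu3 TCDD 4. The 2 lines overlapped at each treatment, without TCDD through WT control 3 and slincRosu3 control 4. Group means were 100.2 ± 16.8 CPM in WT control, 143.3 ± 42.6 in WT TCDD, 71.7 ± 9.89 in slincRosu3 control and 79.2 ± 13.1 in slincRosu3 TCDD (SD, n = 4 each).

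With TCDD, btg2 was 1.809-fold lower in slincRosu3 than in WT, a log2 difference of -0.86 (SE 0.191, interval -1.26 to -0.45) with an edgeR adjusted p of 0.0276. It was the 1 member of 7 called in this contrast, in which 1.86% of all genes tested were called and 0.976% were called lower. The call rested on the libraries: leaving out slincRosu3 TCDD 1, 2 or 3 gave edgeR adjusted p-values of 0.0619, 0.0913 and 0.0828, and leaving out WT TCDD 1 or 2 gave 0.0793 and 0.0757. In a fit of only these 2 groups the edgeR adjusted p was 0.0591. In the authors' deposited table the log2 fold change of btg2 for slincRosu3 TCDD against WT TCDD was -0.85 with an adjusted p of 0.00213. In RNA of whole embryos, fewer cells that express a gene and less of its RNA per cell cannot be told apart.

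Without TCDD the log2 difference of btg2 between the lines was -0.48 (SE 0.19, interval -0.88 to -0.08), at an edgeR adjusted p of 0.316. No member was called in that contrast, in which 1.54% of genes were. Averaged over both treatments the line difference was -0.67 (SE 0.135, interval -0.95 to -0.38), or 1.589-fold lower in slincRosu3, with an edgeR adjusted p of 0.00571. Again btg2 was the 1 member called, against 5.45% of genes called in either direction and 2.8% lower. Leaving out any 1 of the 16 libraries kept the edgeR adjusted p of this averaged difference between 0.000628 and 0.016.

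Some markers of the epidermis differed between the lines too, in opposite directions. Of the 5 epidermal keratin markers, cyt1l was 1.648-fold lower in slincRosu3 averaged over treatments (edgeR adjusted p 0.00246) and krt17 was 1.989-fold higher (0.00191), while krt4, krt5 and cyt1 were not called. The summed level of the 5 markers ran from 24680 to 39090 CPM in WT control, 24190 to 29850 in WT TCDD, 19890 to 31160 in slincRosu3 control and 23830 to 28390 in slincRosu3 TCDD, and none was at 0. No marker of the other 7 tissues was called in the line contrasts over 16 libraries. Without the 4 libraries that stand apart, the heart marker nppa was called for the line with TCDD (1.644-fold higher in slincRosu3, edgeR adjusted p 0.0294) and averaged (1.37-fold higher, 0.025). The part of these markers in the btg2 difference was not tested.

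With TCDD in WT embryos, the log2 difference of btg2 was 0.52 (SE 0.189, interval 0.12 to 0.92), or 1.431-fold higher, and did not pass at an edgeR adjusted p of 0.501. In this contrast 0.325% of genes were called and no member was. The 4 WT TCDD libraries disagreed: libraries 1 and 2 were about equal, library 3 lay between them and the controls, and library 4 lay within the range of the controls. In slincRosu3 the difference was 0.14 (SE 0.19, interval -0.26 to 0.54) with an edgeR adjusted p of 0.999, no member was called, and 0.383% of genes were. Averaged over the lines it was 0.33 (SE 0.134; edgeR adjusted p 0.509), with no member and 0.804% of genes called. The difference between the TCDD effects of the lines was -0.37 (SE 0.268, interval -0.94 to 0.19) for btg2. There, edgeR called 0% of genes, against 899 at an unadjusted p under 0.05 and 0 by DESeq2, and no member was called.

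Without the 4 libraries that stand apart, which leaves only libraries 1 and 2 in WT TCDD, btg2 was 1.901-fold higher with TCDD in WT (log2 difference 0.93, SE 0.148, edgeR adjusted p 0.00487). These 2 held the highest btg2 values of all 16 libraries, at 175.9 and 178.7 CPM. Larger differences and a smaller spread against WT TCDD therefore follow from the libraries kept and add no independent evidence. In slincRosu3, btg2 differed by 0.21 (edgeR adjusted p 0.494), and the difference between the TCDD effects was -0.72 (edgeR adjusted p 0.169). btg2 was then 2.246-fold lower in slincRosu3 than in WT with TCDD (log2 difference -1.17, SE 0.138, edgeR adjusted p 0.000352). The log2 difference between the lines was -0.45 without TCDD (edgeR adjusted p 0.0942) and -0.81 averaged over treatments (0.000201). Of all genes tested in these 12 libraries, 1.53% were called for TCDD in WT, 2.83% and 3.26% for the line without and with TCDD, 2.27% for TCDD averaged and 6.38% for the line averaged. None of the 6 p53 targets was called without these libraries either. For TCDD in WT their log2 differences there were 0.62 (cdkn1a), 0.39 (sesn1), 0.37 (gadd45aa), 0.20 (phlda3), 0.10 (mdm2) and -0.22 (ccng1). The edgeR adjusted p-values of these differences were 0.169 to 0.755. The median of the 7 members, btg2 included, was 0.37, against 0.02 over all genes.

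**Figure D2:**
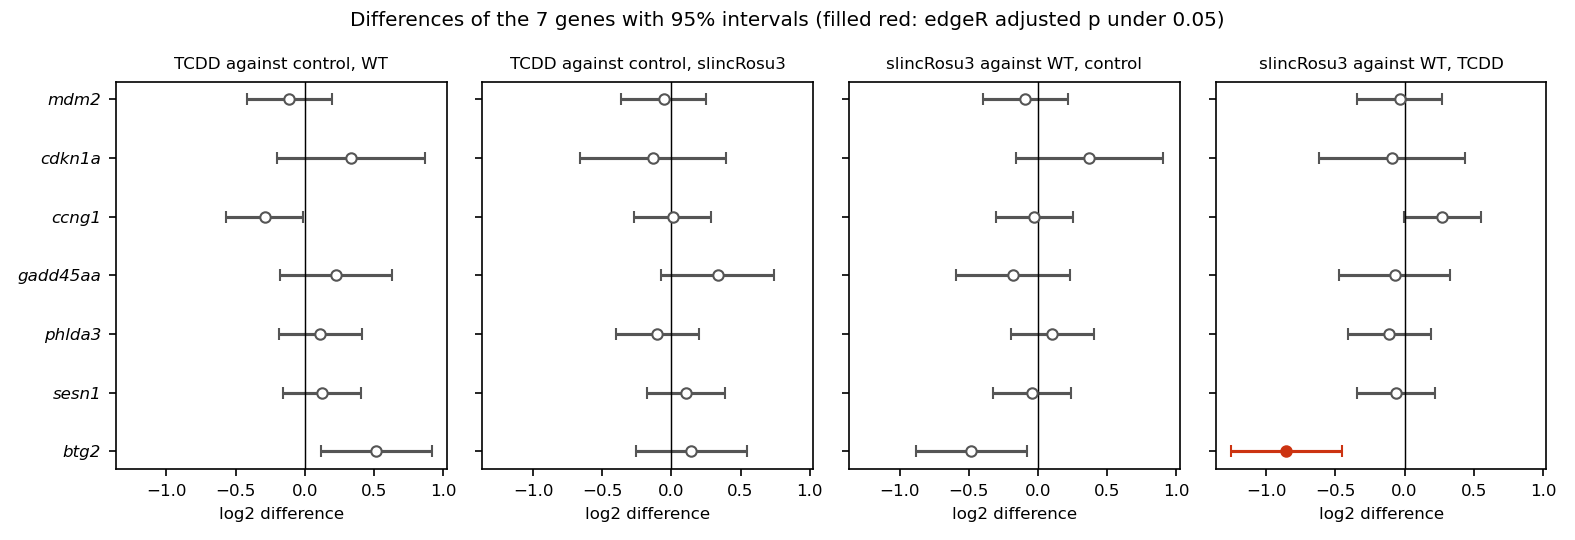
Log2 differences (horizontal axes) of the 7 genes in the 4 comparisons of single groups, with 95% intervals from the edgeR fit, which are not adjusted for the number of genes. The 1 filled point is btg2 in slincRosu3 against WT with TCDD, at -0.86; every other point is open, since its adjusted p was 0.05 or more.

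In all 7 contrasts edgeR called 0 of the 6 targets, against 0% to 5.45% of all genes tested. DESeq2 also called 0 of the 6, and 0 to 1592 genes in all. At such shares, 0 calls among 6 genes is not unusual. At an unadjusted p under 0.05, the only value among the targets was that of ccng1 for TCDD in WT, at 0.0423. Of all genes tested, 8.02% were under that level for TCDD in WT, 4.86% for TCDD in slincRosu3, 11% and 14.3% for the line without and with TCDD, 4.3% for the difference of TCDD effects, and 7.72% and 19% for TCDD and line averaged. A miss of the threshold does not show that a target stayed level: for mdm2 with TCDD in WT the interval reached from a log2 difference of -0.42 to 0.19, and for cdkn1a from -0.20 to 0.87.

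The difference between btg2 and each target was then tested directly, as the log2 ratio of the 2 genes within a library (the difference of their log2 CPM, prior count 2). Averaged over treatments, the mean log2 ratio of btg2 to mdm2 was 1.158 in slincRosu3 and 1.745 in WT, a difference of -0.59. The corresponding difference was -0.75 against cdkn1a, -0.78 against ccng1, -0.54 against gadd45aa, -0.64 against phlda3 and -0.60 against sesn1. In a two-sided exact permutation test of the line labels within each treatment (4900 arrangements), the p-values adjusted over the 6 ratios were 0.00245 for cdkn1a and ccng1, 0.00673 for mdm2 and sesn1, 0.00931 for phlda3 and 0.0171 for gadd45aa. With TCDD only, these log2 differences lay between -1.08 (ccng1) and -0.70 (phlda3), but 4 against 4 libraries allow no exact p below 0.0286, and the adjusted exact p-values were 0.0571 to 0.0857. The 6 ratios share the btg2 values, so they are not independent of each other or of the btg2 calls above, which were known when the ratios were tested.

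Across the 16 libraries, the log2 CPM of btg2 gave Pearson's r of 0.213 with mdm2, 0.11 with cdkn1a, -0.212 with ccng1, 0.334 with gadd45aa, -0.0143 with phlda3 and 0.345 with sesn1. Spearman's rho ran from -0.191 (ccng1) to 0.365 (sesn1). None of the 6 passed a permutation test (100000 resamples, two-sided): p-values adjusted over the 6 pairs were 0.624 to 0.959 for r and at least 0.871 for rho. Without the 2 libraries farthest from each target's median, r ran from -0.426 (ccng1) to 0.345 (sesn1). With the group means removed, so that only the spread within groups was left, r ran from -0.156 (phlda3) to 0.387 (ccng1), and the smallest adjusted permutation p was 0.521. Of all 20906 other genes tested, 12.5% had a higher r with btg2 than sesn1 had, the highest of the targets.

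The targets did not vary closely together either. Among their 15 pairs, r was positive in 12 and had a median of 0.18. The highest was 0.522, between mdm2 and phlda3, with Spearman's rho of 0.476 and permutation p-values adjusted over the 15 pairs of 0.524 and 0.641. Without the 2 libraries farthest from the median of mdm2 this r was 0.456. These pairs were examined after the values of btg2 had been seen.

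The genes with the highest r with btg2 over 16 libraries, among 11307 genes with a mean of at least 5 CPM, were thap7 (0.873), znf750 (0.869), zfx (0.869), rnf165a (0.863) and nfkbiab (0.86), the last of which encodes an inhibitor of NF-kappaB. The lowest were slc12a10.2 (-0.845), nxt2 (-0.818) and casd1 (-0.817). For mdm2 the highest were pkp1b (0.861), oclnb (0.858), cnot6l (0.854), marveld2b (0.842) and zfp36l2 (0.839), and the lowest opa1 (-0.866), abcd3b (-0.822) and acad9 (-0.82). For cdkn1a they were sash1a (0.777), prickle1a (0.765), fam13b (0.755), ncam1b (0.755) and per3 (0.734), against phkg1b (-0.842), commd8 (-0.773) and ap4m1 (-0.757). No gene stood on more than 1 of these 3 lists, and the values describe these libraries only, with no test.

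mdm4, a relative of mdm2 that blocks p53, differed most between the lines with TCDD, by 0.21 (SE 0.0865) at an edgeR adjusted p of 0.273. Of 44 further genes of the p53 pathway, mdm4 included, 42 were in the table and 40 were tested. edgeR called 0 of them in each of the 7 contrasts, where 2 to 5 had an unadjusted p under 0.05. DESeq2 called 1 of the 40, in the line difference averaged over treatments, where it called 1592 genes in all. Their median log2 difference was -0.0092 for TCDD in WT (19 positive, 21 negative) and 0.03 for the line with TCDD (22 positive, 18 negative), against 0.01 and -0.01 over all genes tested. Without the 4 libraries that stand apart, the genes called were plk2b for TCDD in WT (1.48-fold higher, edgeR adjusted p 0.0268), gtse1 for the line without TCDD (1.603-fold lower, 0.0472), tigarb for the line with TCDD (1.841-fold higher, 0.0321) and averaged (1.457-fold higher, 0.0284), and sesn3, plk2b and mcl1a for TCDD averaged over the lines (1.429-fold, 1.358-fold and 1.233-fold higher). The 1 of 40 called in each of the first 3 contrasts is 2.5%, against 1.53%, 2.83% and 3.26% of all genes, and the 3 of 40 for TCDD averaged are 7.5%, against 2.27%.

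The relatives of 3 members were read in the same way. Of the 6 BTG/TOB genes tested, btg2 was the 1 called in any contrast over 16 libraries. In the fit without the 4 libraries that stand apart, tob1b was called as well, for TCDD averaged over the lines (1.365-fold higher, edgeR adjusted p 0.03). btg1 differed by 0.13 (SE 0.145, edgeR adjusted p 0.75) between the lines with TCDD. Among the 6 gadd45 genes, gadd45ga was 1.664-fold higher in slincRosu3 than in WT with TCDD (21.7 against 13.1 CPM, edgeR adjusted p 0.0114), where gadd45aa differed by -0.07 on the log2 scale. Without those 4 libraries gadd45ba and gadd45ab were called for TCDD averaged (1.365-fold and 1.427-fold higher), and gadd45ab for the line averaged (1.402-fold lower in slincRosu3). Of the 9 cyclin-dependent kinase inhibitors tested, cdkn1ba, which encodes a p27 protein, was called with TCDD in WT (1.527-fold higher, edgeR adjusted p 0.00384) and in slincRosu3 (1.453-fold higher, 0.0117), and every exposed library was above every control library of its line, an order that 2.03% and 3.13% of all genes showed in WT and in slincRosu3. That call in slincRosu3 was lost without slincRosu3 control 1 (edgeR adjusted p 0.0559), slincRosu3 control 2 (0.0578) or slincRosu3 TCDD 3 (0.0544), and that in WT in a fit of only its 2 groups (0.153). Averaged over the lines, cdkn1ba was the 1 of 9 called for TCDD, against 0.804% of all genes. Its log2 difference there was 0.57 (edgeR adjusted p 6.91e-05), at 1.19e-05 to 0.000363 with each library left out. cdkn1a, the inhibitor among the members, was called in neither line. For TCDD in WT, 4 of the 9 log2 differences were positive and 5 negative, from -0.90 to 0.61, with a median of -0.038. There 4 had an unadjusted edgeR p under 0.05, against 8.02% of all genes, and DESeq2 called 2. cdkn1cb was at a mean of 4.57 CPM in WT control and 2.44 in WT TCDD, without an edgeR call. Of all genes, edgeR called 0.325% for TCDD in WT and 0.383% for TCDD in slincRosu3. For 21 genes of the cell cycle, which p53 targets and BTG proteins restrain, edgeR and DESeq2 called 0 in each contrast; for TCDD in WT all 21 log2 differences were negative, with a median of -0.36 against 0.01 over all genes, and 8 had an unadjusted p under 0.05. That median was -0.62 without the 4 libraries, and plk1 was called (1.602-fold lower, edgeR adjusted p 0.0451). Over 16 libraries, all 21 were also negative for the line without TCDD (median -0.28). Both contrasts are taken against the same 4 WT control libraries, so they are not independent. The summed level of the 21 genes was 2120 to 3776 CPM in WT control, with a median of 2492, so its highest library stood well above the others. It was 1771 to 2485 CPM in WT TCDD and 1799 to 2721 CPM in slincRosu3 control, and both ranges overlapped that of WT control. The part of the highest WT control library in these differences was not tested. The btg2 difference was negative for the line without TCDD as well, and a link between it and these genes was not tested. For TCDD in slincRosu3 20 of the 21 were negative (median -0.19), and for the line with TCDD 16 were (median -0.08).

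Since mammalian BTG2 is an immediate-early gene, btg2 was set beside 29 genes of that kind, after its own values had been seen. Of these, edgeR called 0 for TCDD in WT, against 0.325% of all genes. There 17 of the 29 had an unadjusted edgeR p under 0.05, against 8.02% of all genes. DESeq2 called 6 of the 29, and 147 genes in all. In that contrast 24 of the 29 log2 differences were positive, with a median of 0.47 against 0.01 over all genes. Leaving out WT TCDD 3, WT TCDD 4 or WT control 3 took the number of the 29 called for TCDD in WT to 6, 3 and 1. Of all genes, 46 to 76 were called there when 1 library was left out. The high values lay in WT TCDD 1 and 2, the same 2 libraries in which btg2 was highest: fosab was at 71.7 and 67.6 CPM there and between 1.36 and 7.64 CPM in the other 14 libraries. Between the lines with TCDD, 14 of the 29 had an unadjusted edgeR p under 0.05, against 14.3% of all genes. DESeq2 called 6 of the 29 there, and 674 genes in all. The log2 difference was negative in 24 of the 29, with a median of -0.53 against -0.01 over all genes. This contrast and TCDD in WT share the 4 WT TCDD libraries. In edgeR, ier2b was the 1 gene of the 29 called between the lines with TCDD, against 1.86% of all genes. It was 2.935-fold lower in slincRosu3 (edgeR adjusted p 0.038). Its call was lost in 9 of 16 edgeR fits that each left out 1 library (adjusted p 0.0504 to 0.119), with the replicate block (0.0604) and with only the groups compared (0.108). For the line with TCDD, leaving out 1 library gave 0 to 6 of the 29 called, the 6 without WT TCDD 3, and 175 to 491 genes in all. Without TCDD, fosl2 was the 1 gene of the 29 called between the lines, in the opposite direction, against 1.54% of all genes. It was 1.808-fold higher in slincRosu3 (edgeR adjusted p 0.0138). The call was lost without slincRosu3 control 1 (0.0573), slincRosu3 control 3 (0.0547) or WT control 4 (0.0558), or with only the groups compared (0.106). Averaged over treatments fosl2 was again the 1 of 29 called, against 5.45% of all genes. There it was 1.688-fold higher (edgeR adjusted p 0.000798), at 0.000183 to 0.00261 with each library left out. Without the 4 libraries that stand apart, 14 of the 29 were called for TCDD in WT, 13 of them higher as btg2 was, and 14 for the line with TCDD, 13 of them lower as btg2 was. That is 48.3% of the list in both, against 1.53% and 3.26% of all genes. Of WT TCDD, that fit keeps only libraries 1 and 2, in which the high values had been seen. Both shares rest on these 2 libraries, so they add no independent evidence.

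**Figure D3:**
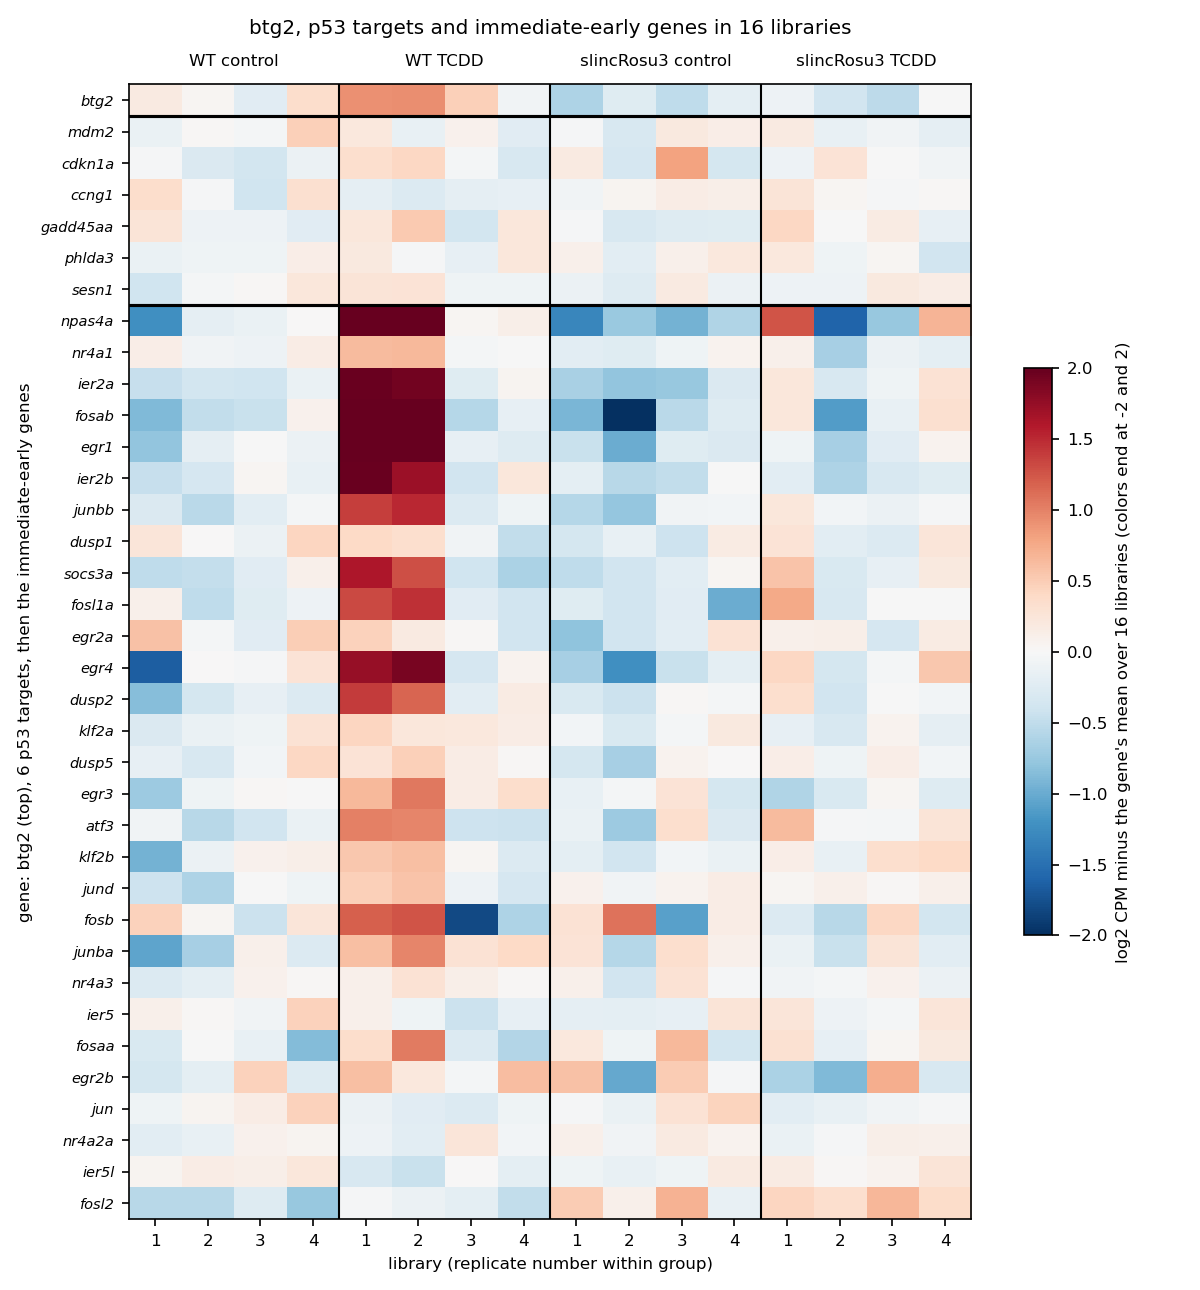
Log2 CPM of each gene (rows: btg2, the 6 targets, 29 immediate-early genes ordered by their r with btg2) minus its mean over 16 libraries (columns), in color from -2 to 2. WT TCDD 1 and 2 are the darkest red columns for fosab, egr1 and ier2b and are also the highest for btg2, while the 6 targets are pale apart from cdkn1a in slincRosu3 control 3.

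Across 16 libraries, 25 of the 29 immediate-early genes had a positive r with btg2, with a median of 0.576. By comparison, 5.21% of all genes had an r over 0.5 and the median over all genes was -0.00165. In the permutation test 15 of 29 passed for r, and 4 for rho (egr2a, nr4a1, dusp1 and npas4a), with p-values adjusted over the 29 pairs. Several of these relations rest on WT TCDD 1 and 2: without the 2 libraries farthest from each gene's median, r fell from 0.768 to 0.25 for fosab, from 0.767 to 0.198 for egr1 and from 0.748 to 0.0909 for ier2b. Leaving out WT TCDD 1 left 0 of 29 passing and leaving out WT TCDD 2 left 5. For 8 of those that had passed (fosab, egr1, egr2a, ier2a, ier2b, nr4a1, dusp1 and npas4a), r without WT TCDD 1 was still 0.597 to 0.726, at adjusted permutation p-values of 0.0505 to 0.0743.

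dusp1, a phosphatase of MAP kinases, had no such peak in WT TCDD 1 and 2. It was at 76.5, 65.0, 59.2 and 86.4 CPM in WT control libraries 1 to 4 and at 84.6, 81.0, 61.4 and 45.9 CPM in WT TCDD. The slincRosu3 libraries were at 50.6, 57.9, 48.1 and 72.1 CPM without TCDD and at 78.0, 55.9, 53.5 and 75.9 CPM with it. In WT control the libraries stood in the same order for dusp1 as for btg2, and in the other 3 groups the order differed by a swap of neighbors. Its r with btg2 was 0.715 (rho 0.759; adjusted permutation p 0.00957 and 0.0136), 0.771 without the 2 farthest libraries and 0.666 (adjusted permutation p 0.0505) without WT TCDD 1. With group means removed it was 0.954 (rho 0.941), with an adjusted permutation p of 0.00145 for both. egr2a was counted only 23 to 60 times per library. It gave an r with btg2 of 0.651 over all libraries and 0.782 with group means removed (adjusted permutation p 0.0154 and 0.00377). Its rho was 0.674 and 0.797. With the replicate block as well, its r was 0.787 and did not pass (adjusted permutation p 0.181). Without that block, dusp1 and egr2a were the 2 of 29 whose r passed with group means removed, against 0 of 6 for the targets. In the 12 libraries without the 4 that stand apart, r with group means removed was 0.918 for dusp1 and 0.691 for egr2a, and neither passed (adjusted permutation p 0.192 and 0.256).

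**Figure D4:**
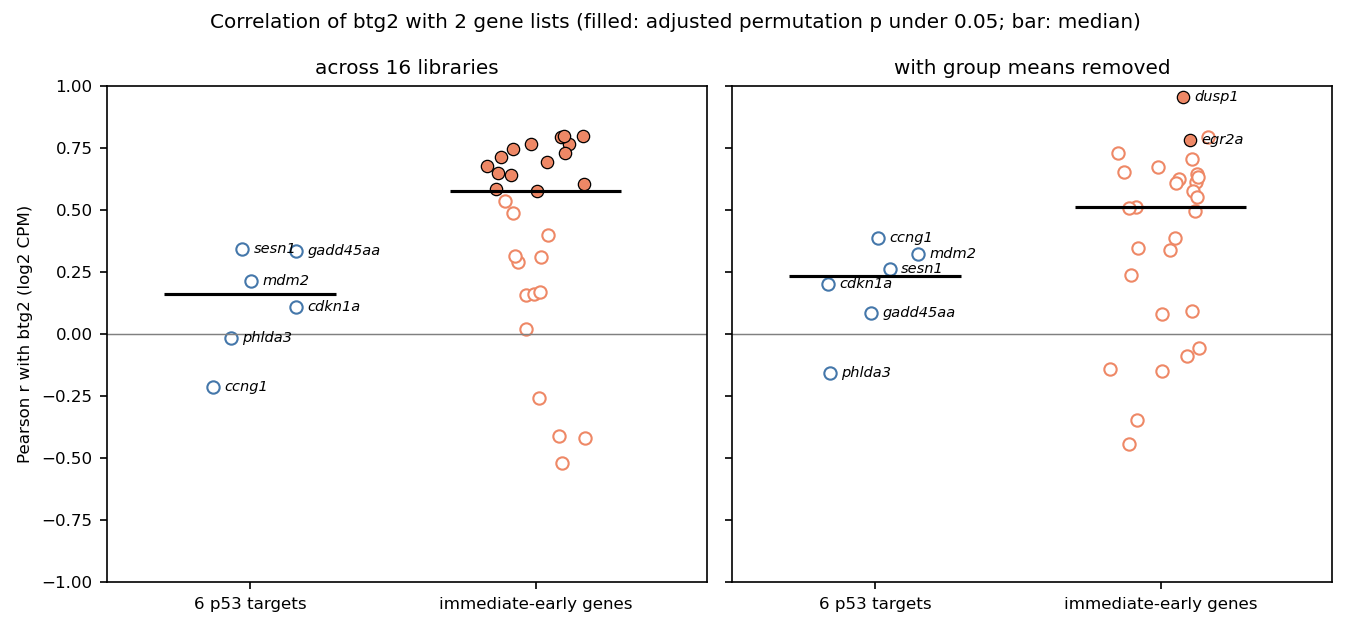
Pearson's r (vertical axis, from -1 to 1) of btg2 with the 6 p53 targets and the 29 immediate-early genes, over 16 libraries on the left and with group means removed on the right; bars are medians and filled points passed the adjusted permutation test. The targets lie between -0.212 and 0.345 on the left with no filled point, and the filled points on the right are dusp1 at 0.954 and egr2a at 0.782.

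The reads of each WT library were deposited as 2 read files, counted apart. The labels do not say whether these are separate sequencing or the 2 ends of the same fragments. Ends of the same fragments would agree by construction, so the files are at most a limited technical check of btg2. In WT TCDD 1 to 4 the files held 1618 and 1633, 1664 and 1791, 1151 and 1262, and 871 and 824 reads of btg2. In WT control 1 to 4 they held 920 and 963, 919 and 910, 719 and 813, and 947 and 976 reads. Such files share their library and say nothing of the spread between embryos. The chi-square per gene between the files of a library was 1.66 to 2.21. It was averaged over genes within a middle range of counts, which btg2 exceeded in WT TCDD 1, 2 and 3. Counting error alone gives about 1 if the 2 files are independent and hold equal totals, and the totals were not scaled here.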

How the data were processed

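RNA-seq of whole embryos was read from the authors' main table of raw counts per Ensembl gene (16 libraries, 26347 genes). The name it was deposited under says that zero counts were removed and that a percentile cut was made as well, without further detail. Shares of all genes given here therefore refer to genes left after those steps. In it, 1 value of 1 column, deposited as estimated counts, was not whole and was rounded. The submitters' processing notes name HISAT2, STAR, DESeq2 and the build GRCz11; versions, counting tool and strand setting are not given in the sources used here. Strand being unstated, reads of a gene and of one that overlaps it, on either strand, cannot be told apart. A second deposited table of counts gives 2 read files for each WT library, and their sums equaled the main table for all 26347 genes. The log2 fold changes and adjusted p-values deposited by the authors are quoted only where named. A first deposited sheet of read counts was left out, since its WT columns disagree with the columns of the same names in the main table (the counts of each WT TCDD library stand there under another WT name, some of them a control's), as were 48 columns whose names match no label. The authors' tables call the controls DMSO, and the labels call them control.

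Genes were tested with the quasi-likelihood F test of edgeR 4.0.16 in R 4.3.3 (two-sided; TMM; filterByExpr by group, 20907 genes kept; Benjamini-Hochberg over all genes tested; threshold 0.05) in 1 fit of 16 libraries with 12 residual degrees of freedom. It had been planned for all 24 labelled samples. Correlations used log2 CPM (prior count 2) and 100000 permutations, within groups where group means were removed. The log2 ratios were tested by exact permutation of line labels within treatment; these, and the immediate-early correlations, were added after seeing the data. The test was tried on simulated counts first. Alternatives were the DESeq2 1.42.0 Wald test, DESeq2 size factors, no filter, only the groups compared, a replicate block, each library left out, and 12 libraries without the 4 that stand apart.

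The 7 members and all gene lists were chosen with earlier results of these data known. The text names the 7 members, list members past the threshold (up to 4 a contrast), mdm4, cyp1a, and the 5 highest and 3 lowest r with btg2, mdm2 and cdkn1a among genes with a mean of at least 5 CPM; other genes were named after their values were seen. Another gene that the rule takes is not reported here. Gene symbols are the authors', or come from a gene name table.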

Additional observations from a re-analysis of the deposited data

Results flagged for a closer look

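Of 28 groups of 4 libraries (7 genes in 4 groups), 1 held a library far from the others by Dixon's criterion, and chance alone marks about 1 group in 20. It was ccng1 in WT TCDD, where the lowest library, WT TCDD 2, was at 458.9 CPM and the other 3 were between 492.3 and 495.3 CPM. The gap was 0.918 of the range, above Dixon's 95% critical value for 4 samples, in the group with the smallest spread of ccng1.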

How the results depend on the processing

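Over 151 alternative values for btg2, the direction of each log2 difference was the same as in the reported fit, and the side of the threshold changed in 8, 6 of them losing the call with TCDD between the lines (-0.86) and 2 gaining a call for TCDD. Over 906 alternative values for the 6 targets, none was called and 55 changed sign. Depth limits cdkn1a and gadd45aa most, at 32 to 96 counts per library. The causes of the changes below were not tested, apart from the fewer libraries in some fits.

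With the DESeq2 Wald test the number of genes called was 147 for TCDD in WT, 157 for TCDD in slincRosu3, 499 for the line without TCDD, 674 for the line with TCDD and 266 for TCDD averaged. With only the groups compared it was 26 for TCDD in WT and 149 for the line without TCDD, and 0 of the 7 members were called for the line with TCDD. Without the 4 libraries that stand apart it was 327, 170, 604, 697, 20 and 486 for TCDD in WT, TCDD in slincRosu3, the line without and with TCDD, the difference of TCDD effects and TCDD averaged, and 1 member, btg2, was called for TCDD in WT and 1 for TCDD averaged. In those 12 libraries the log2 difference turned to 0.097 (mdm2) and 0.31 (dusp1) for TCDD in WT, to -0.0045 (fosl2) and 0.068 (ier2b) for TCDD in slincRosu3, to 0.023 (mdm2), 0.051 (ccng1), 0.076 (sesn1) and 0.051 (gadd45ga) for the line without TCDD, to -0.11 (mdm2) and -0.050 (gadd45aa) for the difference of effects, and to 0.039 (mdm2) for TCDD averaged. There, r with btg2 turned to 0.057 for phlda3, and with group means removed to -0.24 (mdm2), -0.26 (cdkn1a), -0.012 (gadd45aa), -0.46 (sesn1), -0.059 (fosab), -0.20 (egr1) and -0.29 (ier2b), and 0 of 29 immediate-early genes passed.

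Same-numbered libraries deviated together in 16 of 24 pairs at a correlation over 0.1 (range -0.276 to 0.676). Libraries of unlike number were not compared, so it is not settled whether the numbers pair the libraries. The main fit had no replicate block, as planned. With the replicate block, btg2 for the line with TCDD had a log2 difference of -0.86 and an edgeR adjusted p of 0.0261, r of btg2 with gadd45aa with group means removed was -0.17, and 1 of 29 immediate-early genes passed with group means removed.

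Leaving out each library in turn gave 46 to 102 genes called for TCDD in slincRosu3, 176 to 342 for the line without TCDD and 175 to 491 for the line with TCDD, 0 to 1 member called for the line with TCDD, and 0 to 18 of 29 immediate-early correlations passing. Log2 differences whose sign changed ran as follows. For TCDD in WT, mdm2 ran from -0.19 to 0.037 and dusp1 from -0.19 to 0.077. For TCDD in slincRosu3, mdm2 ran from -0.15 to 0.014, cdkn1a from -0.27 to 0.19, ccng1 from -0.055 to 0.042, phlda3 from -0.19 to 0.0047 and ier2b from -0.12 to 0.073. For the line without TCDD, mdm2 ran from -0.16 to 0.055, ccng1 from -0.16 to 0.070, sesn1 from -0.15 to 0.051, mdm4 from -0.012 to 0.096, gadd45ga from -0.13 to 0.074 and ier2b from -0.20 to 0.016. For the line with TCDD, mdm2 ran from -0.12 to 0.044, cdkn1a from -0.22 to 0.022, gadd45aa from -0.22 to 0.064, sesn1 from -0.12 to 0.0001, cdkn1ba from -0.025 to 0.089 and dusp1 from -0.20 to 0.067. For the difference of effects, mdm2 ran from -0.086 to 0.14, gadd45aa from -0.038 to 0.25 and sesn1 from -0.11 to 0.087. For TCDD averaged, phlda3 ran from -0.041 to 0.059 and mdm4 from -0.050 to 0.014. For the line averaged, mdm2 ran from -0.10 to 0.012, cdkn1a from -0.019 to 0.21 and phlda3 from -0.050 to 0.049. Pearson's r with btg2 ran from -0.083 to 0.41 for cdkn1a and from -0.20 to 0.057 for phlda3, and with group means removed from -0.11 to 0.41 for cdkn1a, -0.14 to 0.22 for gadd45aa and -0.27 to 0.075 for phlda3.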
